A study of Homo sapiens with 18 samples.

Results

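The spindle checkpoint genes TTK, BUB1, BUB1B, BUB3, MAD1L1, MAD2L1 and ZW10 were followed in U251 cells after silencing of MPS1, the kinase that TTK encodes. The 7 genes were taken by symbol from the array's annotation and made up 7 of the 7825 genes tested. They were measured by 14 of the 19064 probe sets that name exactly 1 gene, and for each gene the probe set with the highest mean over the 18 arrays was used as the main one. U251 is an established human glioblastoma line, and all groups were cultures of this line. Cells were untransfected (Control), transfected with a negative siRNA (siNeg) or transfected with an siRNA against MPS1 (siMPS1), and RNA was taken at 6, 24 and 48 h. Each of the 9 groups held 2 arrays. The labels give 2 pmol of siRNA for the transfections. The sources used here name neither the siRNA sequences nor the reagent. No label ties the replicate arrays to separate cultures, so the p-values measure the spread between these samples, which may be technical.

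The spindle checkpoint delays the separation of sister chromatids until every chromosome is attached to spindle microtubules at its kinetochore. MPS1 phosphorylates the kinetochore scaffold KNL1, which then recruits BUB3 with BUB1 and with BUBR1, the product of BUB1B. MAD1 (MAD1L1) holds MAD2 (MAD2L1) at unattached kinetochores, and MAD2, BUBR1 and BUB3 bind CDC20 and so keep the anaphase-promoting complex from acting. ZW10 belongs to the RZZ complex of the outer kinetochore, which brings dynein and helps to hold MAD1 there. RNA of several of these genes is known to be highest in G2 and mitosis, through promoter elements named CHR (cell cycle genes homology region) and CCAAT.

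Of the 7 genes, 5 had an entry in the RefSeq promoter table (GRCh38.p14). Those of BUB1, BUB1B and MAD2L1, which rose between 6 and 24 h, and of MAD1L1, which fell, are shown because their time courses were opposite. Each runs from 250 bases before the annotated start of the gene to 30 bases from it, 5′ to 3′ on the gene's strand, so that base 251 is the start. Capitals mark a match on either strand to a CHR, searched as TTTGAA and also as TTCGAA, to a CCAAT box, searched by these 5 letters, or to an E2F motif, searched as TTCCCGC and then as TTGGCGC and next as TTCGCGC and last as TTGCCGC.
BUB1, chr2:110678034-110678313, minus strand: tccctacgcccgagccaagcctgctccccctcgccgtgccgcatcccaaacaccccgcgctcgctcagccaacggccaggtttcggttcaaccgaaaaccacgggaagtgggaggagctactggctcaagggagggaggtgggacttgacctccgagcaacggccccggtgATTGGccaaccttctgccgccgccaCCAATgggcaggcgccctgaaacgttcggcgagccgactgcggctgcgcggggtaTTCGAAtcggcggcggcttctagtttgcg
BUB1B, chr15:40160819-40161098, plus strand: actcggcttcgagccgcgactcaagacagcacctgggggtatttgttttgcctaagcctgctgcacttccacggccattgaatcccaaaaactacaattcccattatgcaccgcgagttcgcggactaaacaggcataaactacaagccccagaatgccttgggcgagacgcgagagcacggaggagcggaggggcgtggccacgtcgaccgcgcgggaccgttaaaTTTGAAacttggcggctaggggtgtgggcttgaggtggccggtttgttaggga
MAD2L1, chr4:120066819-120067098, minus strand: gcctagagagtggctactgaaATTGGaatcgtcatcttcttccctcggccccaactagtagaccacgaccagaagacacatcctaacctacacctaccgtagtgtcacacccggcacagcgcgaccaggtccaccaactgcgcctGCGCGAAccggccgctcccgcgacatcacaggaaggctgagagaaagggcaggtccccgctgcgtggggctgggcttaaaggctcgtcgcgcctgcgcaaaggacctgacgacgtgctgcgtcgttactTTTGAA
MAD1L1, chr7:2232916-2233195, minus strand: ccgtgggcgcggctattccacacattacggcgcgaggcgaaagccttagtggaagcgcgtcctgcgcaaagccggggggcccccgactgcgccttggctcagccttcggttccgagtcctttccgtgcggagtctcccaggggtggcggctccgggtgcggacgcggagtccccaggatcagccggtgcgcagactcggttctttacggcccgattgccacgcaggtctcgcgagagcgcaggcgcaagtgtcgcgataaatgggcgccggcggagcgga
The BUB1 window held the CHR form TTCGAA, which reads the same on both strands, at bases 252 to 257, and CCAAT boxes at bases 172 to 176 and 197 to 201. The BUB1B window held a CHR at bases 228 to 233. The MAD2L1 window held a CHR at bases 275 to 280, a CCAAT box at bases 22 to 26 and an E2F motif at bases 146 to 152. The MAD1L1 window held none of these letters. A CHR was present in 15.6% of 35116 promoter windows of this length, a CCAAT box in 33.6%, an E2F motif in 12.2%, and a CHR together with a CCAAT box in 5.89%. ZW10, whose window is not shown, had a CHR, a CCAAT box and 2 E2F motifs, 1 of which overlapped its CCAAT box. It was not called between 6 and 24 h in any treatment. The windows shown were chosen by time course, and a link of motif to direction was not tested. These matches describe the letters of the windows only. TTK and BUB3 are named only.

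Levels are given as log2(signal + 3), a scale on which a difference understates the change of dim probe sets, and a gene was called where its limma p, adjusted by Benjamini-Hochberg over all genes tested, was under 0.05. All 7 genes passed the filter on dim probe sets, as did 11 of their 14 probe sets. Array medians of the deposited log2 values ran from 4.3 to 4.56, and replicate arrays correlated from 0.983 to 0.99. Of 10 markers of a glioblastoma line 7 passed the filter, led by VIM at the 99.7th percentile of probe sets, CD44 at the 99.4th and TNC at the 97.6th, whereas GFAP, S100B and CHI3L1 did not pass. Of 5 epithelial markers 1 passed (CLDN4) and of 5 blood markers 1 passed (HBB, at the 41.1st percentile), while 4 of 5 neuronal markers passed, led by NEFL. The summed level of each list overlapped between the treatments, with the neuronal list from 10.43 to 11.05 in Control, 10.43 to 11.2 in siNeg and 10.54 to 10.88 in siMPS1. The siMPS1 arrays at 48 h had the highest 3′ to 5′ ratios of all groups. Their ACTB 3′ probe set exceeded the 5′ one by 0.87 and 0.92 on the log2 scale, against a mean of 0.12 in siNeg and 0.2 in Control at 48 h and at most 0.43 in the other groups. For GAPDH this ratio was 0.29 in siMPS1 at 48 h, 0.05 in siNeg and -0.03 in Control. Other groups also differed in the signal of 18S rRNA. At 6 h it read 10.36 to 10.42 in siMPS1, 10.09 to 10.13 in siNeg and 9.73 to 9.77 in Control, at 24 h it was highest in siNeg (10.6 to 10.64, against 9.88 to 10.05 in siMPS1 and 9.91 to 9.95 in Control), and at 48 h it read 10.75 to 10.84 in siMPS1, 9.46 to 9.5 in siNeg and 9.74 to 9.75 in Control. The part of these measures in the results was not tested. With so few arrays, their number limits the precision of every value below.

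Against siNeg, TTK was the gene of the 7 called at 6 h, when 7.69% of all genes were called and 4.26% were called lower. At 24 h 3 of the 7 were called, TTK and MAD1L1 lower and BUB1B higher, beside 10.9% of all genes in either direction and 5.81% lower. At 48 h 4 were called, TTK, BUB1, BUB1B and BUB3, all lower, beside 29.2% of all genes and 13.4% lower. The median difference over the 7 genes was -0.31 at 48 h, against 0.026 over all genes, and all 7 differences were negative. Against Control 3 were called lower at 6 h (TTK, BUB1 and BUB3), beside 16.6% of all genes. At 24 h 4 were called, beside 12.7%: TTK, MAD1L1 and ZW10 lower and BUB1B higher. At 48 h 3 were called, beside 27.5%: TTK and BUB3 lower and BUB1B higher. The comparisons against siNeg and against Control share the siMPS1 arrays. Between the control treatments 1 of the 7 was called at 6 h, BUB3, which was lower in siNeg (all genes 3.86%), and 1 at 48 h, BUB1B, which was higher in siNeg (all genes 12.9%). At 24 h limma called 0 of the 7, beside 0.933% of all genes, with 2 at an unadjusted p under 0.05, MAD1L1 and ZW10. With each array centred on its median, all differences against Control at 6 h shifted by -0.194 for siMPS1 and -0.146 for siNeg, and the share of called genes that were higher went from 56.1% to 10.4% for siMPS1 and from 74.5% to 11.8% for siNeg. That share went from 43.3% to 67.7% for siMPS1 against Control at 24 h and from 55.5% to 44% at 48 h, from 49.3% to 85.8% for siNeg against Control at 24 h, and from 44.7% to 30.9% for siMPS1 against siNeg at 6 h. The count of the 7 genes called for siMPS1 against Control at 6 h was then 5, with BUB1B at -0.37 and ZW10 at -0.40 added, while the count over all 7825 genes went from 1298 to 2246.

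**Figure D1:**
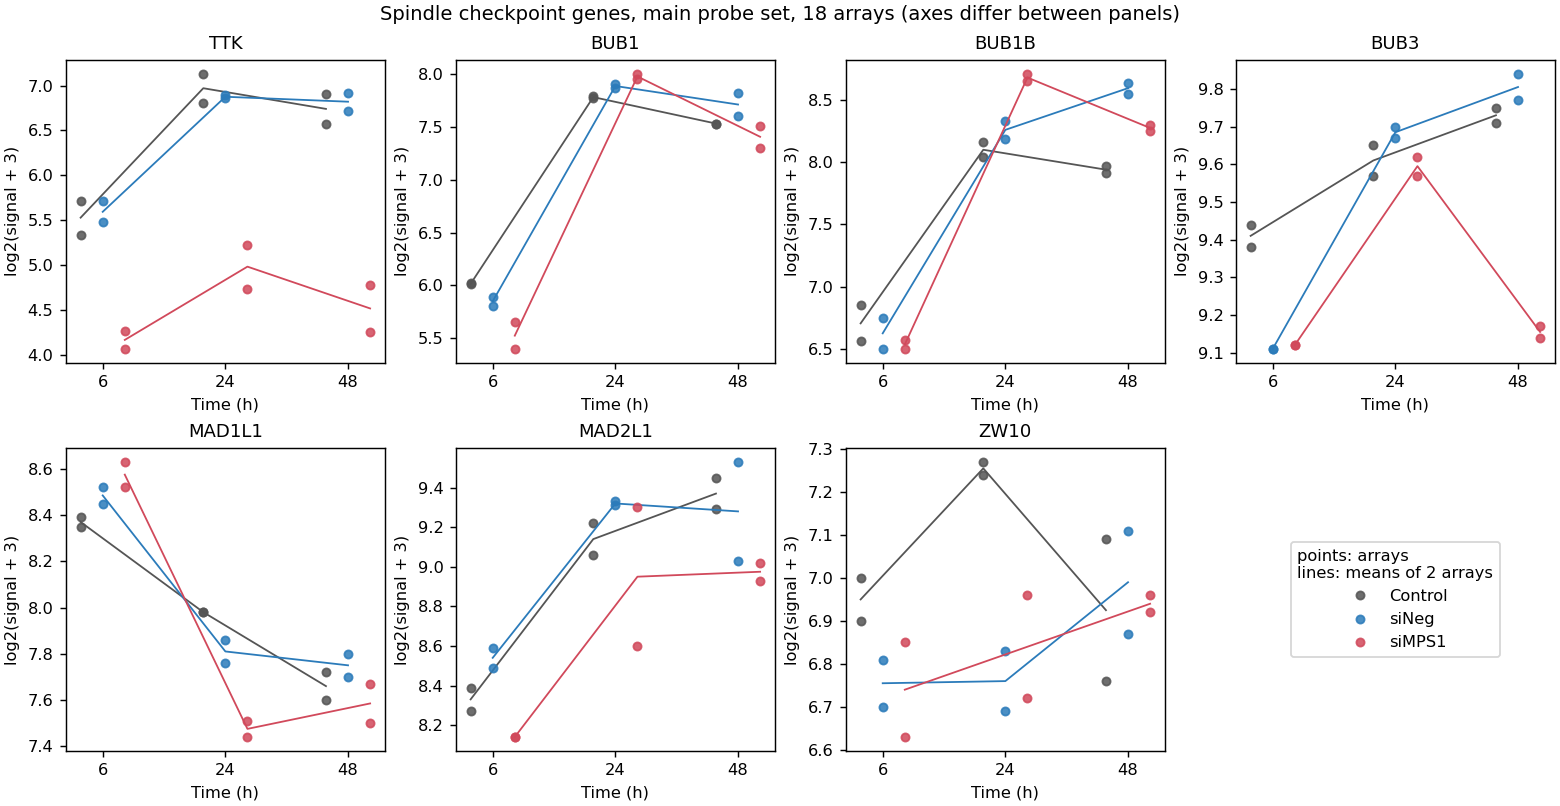
Level of each gene on the log2(signal + 3) scale (vertical axis, its own range in each panel) at 6, 24 and 48 h (horizontal axis) in Control, siNeg and siMPS1; points are arrays and lines join the means of 2 arrays. The siMPS1 points of TTK all lie below its other points, and BUB1 and BUB1B rise from 6 to 24 h in all 3 treatments while MAD1L1 falls.

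TTK, the kinase at the head of the pathway, has 1 probe set and was the targeted gene. Its 2 siMPS1 arrays read 4.07 and 4.27 at 6 h, 5.23 and 4.74 at 24 h, and 4.78 and 4.26 at 48 h. The siNeg arrays read 5.48 and 5.71 at 6 h, 6.86 and 6.89 at 24 h, and 6.72 and 6.92 at 48 h. In Control they read 5.34 and 5.72, then 7.13 and 6.81, then 6.57 and 6.91. Each siMPS1 array was below each of the 12 other arrays, including those of untransfected cells at 6 h, when TTK was low without silencing. The siNeg and Control arrays overlapped at 6 and 48 h, and at 24 h the siNeg arrays lay between those of Control. The interval (95%) of the difference between siMPS1 and siNeg ran from -1.86 to -0.996 at 6 h, from -2.32 to -1.45 at 24 h and from -2.73 to -1.87 at 48 h. In bulk RNA, fewer cells with the transcript and less transcript per cell cannot be told apart.

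TTK also rose between 6 and 24 h in the silenced cells. Its 6 h arrays there read 4.07 and 4.27, dim levels at which this scale understates differences. Its siMPS1 level was 0.82 higher at 24 than at 6 h (SE 0.21, adjusted p = 0.00302), against 1.28 in siNeg and 1.44 in Control. With the compared groups alone in the fit the adjusted p for siMPS1 was 0.0567, and without siMPS1 replicate 1 at 24 h it was 0.0612. The deficit against siNeg was larger at 48 than at 6 h by 0.87 (SE 0.29, adjusted p = 0.0421), a call that was lost under 8 of 11 alternative settings (adjusted p up to 0.118) and without any of 8 of the 18 arrays (up to 0.18): each of the 6 siNeg arrays and replicate 2 of siMPS1 at 6 and at 48 h. Between 6 and 24 h the deficit grew by 0.45 (95% interval of the change from -1.07 to 0.16), and between 24 and 48 h by 0.41 (from -1.03 to 0.20), neither of them called. In the order of the 9 group means, 6 of 8 neighbouring groups overlapped, and the breaks lay between siMPS1 at 24 h and Control at 6 h and between siNeg at 6 h and Control at 48 h.

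BUB1, the kinase that marks centromeric chromatin for the shugoshins, moved far more with time than with silencing. In siMPS1 it read 5.65 and 5.4 at 6 h, 8 and 7.95 at 24 h, and 7.51 and 7.3 at 48 h. In siNeg it read 5.81 and 5.89, then 7.87 and 7.9, then 7.6 and 7.82, and in Control 6.02 and 6.01, then 7.77 and 7.79, then 7.53 and 7.53. The siMPS1 arrays were thus the lowest at 6 h, the highest at 24 h and the lowest at 48 h, without overlap with either control treatment. Groups of 2 arrays can separate in this way without a call. The share of all genes that do so was not counted, here or for the other genes and probe sets. Against siNeg BUB1 was called at 48 h, with a difference of -0.31 (SE 0.10, adjusted p = 0.0307). The 6 h difference of -0.32 (adjusted p = 0.0635) and that of 0.09 at 24 h (adjusted p = 0.655) were not called. The 48 h call against siNeg was lost with the compared groups alone in the fit (adjusted p = 0.0636) and without siNeg replicate 2 or siMPS1 replicate 2 at 48 h, with adjusted p-values up to 0.269. Against Control it was -0.49 at 6 h (adjusted p = 0.00475) and -0.13 at 48 h (95% interval from -0.34 to 0.09). The 6 h call against Control was lost with the compared groups alone in the fit and without siMPS1 replicate 2 at 6 h, and the mean of the gene's probe sets gave -0.19 (adjusted p = 0.532).

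BUB1 has 5 probe sets, 2 of which passed the filter. The other one that passed, 215509_s_at, read 4.02 and 4.08 in siMPS1 at 48 h, 4.76 and 5.43 in siNeg, and 5.15 and 5.19 in Control, without overlap between siMPS1 and the control treatments. In the fit over all 19064 probe sets its 48 h difference was -1.05 against siNeg (SE 0.36, adjusted p = 0.0626) and -1.12 against Control (adjusted p = 0.0481). Of the 14 probe sets of the 7 genes, that fit called 1 at 48 h against Control that was not a main one, this probe set, beside 14.7% of all probe sets. With the mean of both probe sets the BUB1 difference at 48 h was -0.68 against siNeg (adjusted p = 0.0147) and -0.62 against Control (adjusted p = 0.0251). Of the 3 dim probe sets of BUB1 limma called 0 in the comparisons of siMPS1 with siNeg or Control, with 1 value at an unadjusted p under 0.05, that of 215508_at at 6 h against siNeg. Whether the probe sets differed from each other was not tested.

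On main probe sets BUB3, the adaptor that carries BUB1 and BUBR1 to KNL1, had the smallest standard error of the 7 genes. On these it also had the largest 48 h difference after TTK. Its main probe set, 201457_x_at, read 9.14 and 9.17 in siMPS1 at 48 h, 9.84 and 9.77 in siNeg, and 9.71 and 9.75 in Control. At 24 h it read 9.62 and 9.57 in siMPS1, 9.7 and 9.67 in siNeg, and 9.57 and 9.65 in Control. At 6 h it read 9.12 and 9.12 in siMPS1, 9.11 and 9.11 in siNeg, and 9.38 and 9.44 in Control. The groups with siRNA were thus together and below Control at 6 h, not called against Control at 24 h, and apart from each other at 48 h. At 6 h the difference from Control was -0.29 for siMPS1 (adjusted p = 0.00305) and -0.30 for siNeg (adjusted p = 0.00575). With median centring these were -0.48 and -0.45, and with the mean of the probe sets -0.17 (adjusted p = 0.072) and -0.06 (adjusted p = 0.663). The siNeg call was also lost without replicate 2 of Control or of siNeg at 6 h (adjusted p up to 0.066). The difference between siMPS1 and siNeg was 0.02 at 6 h, -0.09 at 24 h and -0.66 at 48 h (SE 0.06, adjusted p = 1.34e-07). The test of the change gave -0.56 from 24 to 48 h (adjusted p = 0.000119), one of 2 such calls among the 7 genes (BUB3 and BUB1B) beside 15.8% of all genes, and -0.67 from 6 to 48 h (adjusted p = 1.88e-05), where BUB3 and TTK were called beside 20.2%.

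The 4 probe sets of BUB3 did not give the same difference at 48 h. Against siNeg it was -0.66 for 201457_x_at, -0.10 for 209974_s_at (adjusted p = 0.39), -0.11 for 201458_s_at (adjusted p = 0.555) and -0.01 for 201456_s_at (adjusted p = 0.978). The fit over all probe sets called 1 of the 4, beside 16% of all probe sets. Against Control the same probe sets gave -0.58, 0.05, 0.21 and -0.25, again with 1 called, beside 14.7% of all probe sets. At 6 h the fit called 209974_s_at, which was 0.30 lower in siMPS1 than in siNeg (log2 difference -0.30, adjusted p = 0.0345), beside 2.73% of all probe sets, and at 24 h limma called 0 of the 4, beside 4.97%, with 1 at an unadjusted p under 0.05 (201458_s_at, at 0.30). The suffix _x_at marks probes that may also match other sequences. As a mean of its probe sets, BUB3 differed by -0.22 from siNeg (adjusted p = 0.0127) and by -0.14 from Control (adjusted p = 0.103) at 48 h, and its change from 6 to 48 h was -0.11 (adjusted p = 0.412).

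From 24 to 48 h all 4 BUB3 probe sets fell in siMPS1. The falls were -0.44 for 201457_x_at (adjusted p = 6.25e-05), -0.24 for 209974_s_at (adjusted p = 0.0338), -0.48 for 201458_s_at (adjusted p = 0.00442) and -0.57 for 201456_s_at (adjusted p = 0.00229), in a fit that called 12.6% of all probe sets. In Control 1 of the 4 was called over the same interval, 201458_s_at at -0.39, beside 9.17% of all probe sets, and in siNeg 1 was called, 201456_s_at at -0.38, beside 15.2%. In both control treatments 201457_x_at was not called and was higher at 48 h, by 0.12. With median centring, in the fit over genes, it was called higher in both, by 0.26 in Control (adjusted p = 0.00423) and by 0.17 in siNeg (adjusted p = 0.0464). Probe sets of 1 gene share its RNA samples and are not replicates.

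**Figure D2:**
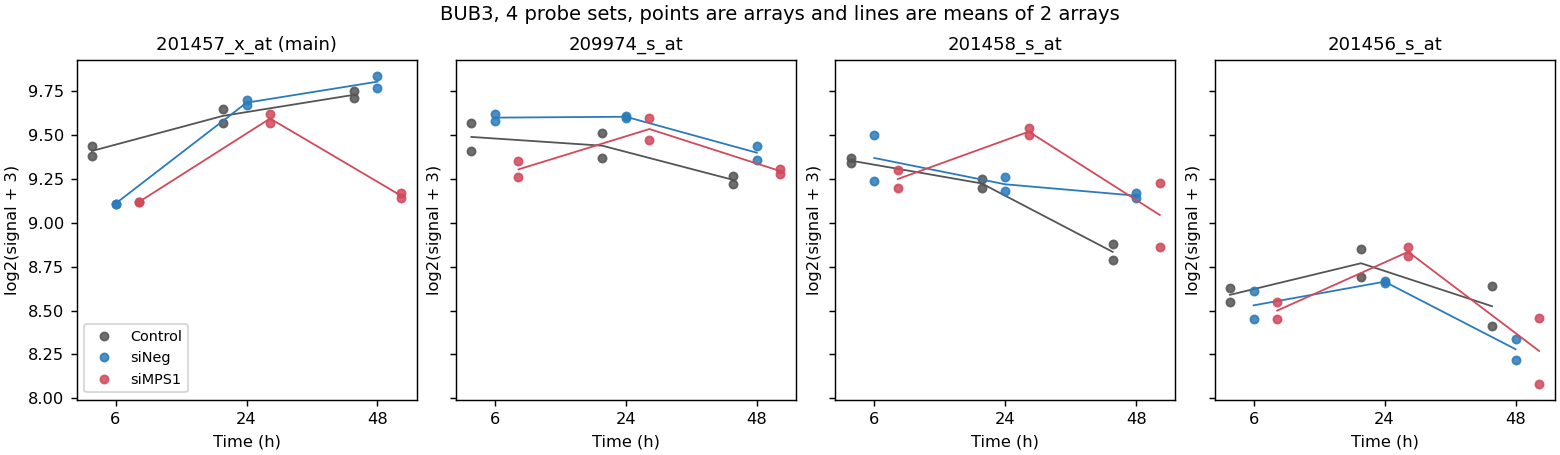
Level of the 4 BUB3 probe sets on the log2(signal + 3) scale (vertical axis) at 6, 24 and 48 h (horizontal axis); points are arrays and lines join the means of 2 arrays in Control, siNeg and siMPS1. At 48 h the siMPS1 points of 201457_x_at, at 9.14 and 9.17, lie apart below the others, while in the other 3 panels the siMPS1 and siNeg points are near or overlap; heights are not comparable between panels.

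BUB1B, whose product BUBR1 binds CDC20 directly, was highest in siMPS1 at 24 h. The siMPS1 arrays read 6.57 and 6.5 at 6 h, 8.65 and 8.71 at 24 h, and 8.3 and 8.25 at 48 h. The siNeg arrays read 6.75 and 6.5, then 8.19 and 8.33, then 8.64 and 8.55, and the Control arrays 6.56 and 6.85, then 8.16 and 8.04, then 7.91 and 7.97. The groups overlapped at 6 h, siMPS1 lay above both controls at 24 h, and at 48 h siMPS1 lay between Control below and siNeg above, with no overlap. At 24 h the difference was 0.42 against siNeg (SE 0.10, adjusted p = 0.0114) and 0.58 against Control (adjusted p = 0.000891). At 48 h it was -0.32 against siNeg (adjusted p = 0.024) and 0.34 against Control (adjusted p = 0.0177), and siNeg itself was 0.65 above Control (adjusted p = 0.000347). The change against siNeg from 24 to 48 h was -0.73 (SE 0.14, adjusted p = 0.00168).

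Of these BUB1B calls, that of siMPS1 against Control at 24 h held under all 11 alternative settings. So did that between siNeg and Control at 48 h and that of the change from 24 to 48 h. With an array left out these differences ran from 0.52 to 0.64, from 0.61 to 0.70 and from -0.80 to -0.67. The other BUB1B calls rest on few arrays. The 24 h call against siNeg was lost without siNeg replicate 1 or siMPS1 replicate 2 at 24 h (adjusted p up to 0.124), and the 48 h call without siNeg replicate 1 or either siMPS1 array at 48 h (up to 0.135) and in a fit without the variance trend (adjusted p = 0.0528). The 48 h call against Control was lost without any of the 4 compared arrays (up to 0.101) and with median centring (adjusted p = 0.0664).

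MAD2L1, whose product binds and blocks CDC20, was called in 0 of the 9 comparisons between treatments in limma, with 3 at an unadjusted p under 0.05. In siMPS1 it read 8.14 and 8.14 at 6 h, 9.3 and 8.6 at 24 h, and 8.93 and 9.02 at 48 h. In siNeg it read 8.49 and 8.59, then 9.33 and 9.31, then 9.03 and 9.53, and in Control 8.27 and 8.39, then 9.22 and 9.06, then 9.45 and 9.29. The siMPS1 arrays were below both controls at 6 and 48 h, and at 24 h they spread over 0.7 and overlapped Control. Against siNeg the difference was -0.40 at 6 h (95% interval from -0.74 to -0.06, adjusted p = 0.137), -0.37 at 24 h (from -0.71 to -0.03, adjusted p = 0.162) and -0.31 at 48 h (from -0.65 to 0.03, adjusted p = 0.173). Against Control it was -0.19 at 6 h, -0.19 at 24 h and -0.40 at 48 h (95% interval from -0.74 to -0.06, adjusted p = 0.0793). The 24 h difference from siNeg turned on siMPS1 replicate 1, without which it was -0.72 (adjusted p = 0.00347). Without siNeg replicate 1 at 48 h the 48 h difference was -0.55 (adjusted p = 0.03), and with the compared groups alone in the fit the 6 h one had an adjusted p of 0.0144. The 6 h difference from siNeg was also called without either siMPS1 array at 24 h (adjusted p down to 0.0361). Against Control, the 24 h difference was -0.54 without siMPS1 replicate 1 (adjusted p = 0.0197), and the 48 h one was called with the compared groups alone (adjusted p = 0.00894) and without either siNeg array at 48 h or either siMPS1 array at 24 h (down to 0.0152).

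MAD1L1, whose product anchors MAD2, ran the other way in time. In siMPS1 it read 8.52 and 8.63 at 6 h, 7.44 and 7.51 at 24 h, and 7.5 and 7.67 at 48 h. In siNeg it read 8.45 and 8.52, then 7.76 and 7.86, then 7.7 and 7.8, and in Control 8.35 and 8.39, then 7.98 and 7.98, then 7.6 and 7.72. At 24 h the siMPS1 arrays were the lowest, siNeg came next and Control was highest, without overlap. The 24 h difference was -0.33 against siNeg (SE 0.08, adjusted p = 0.011) and -0.51 against Control (adjusted p = 0.000367), and at 48 h it was -0.16 (adjusted p = 0.139) and -0.08 (adjusted p = 0.522). At 6 h siMPS1 was 0.21 above Control (adjusted p = 0.0794). This was called with quantile normalization, at 0.25, and with a replicate block (adjusted p = 0.0452), and it was 0.01 with median centring. The 24 h call against siNeg was lost with the compared groups alone in the fit (adjusted p = 0.0522) and without siNeg replicate 2 or siMPS1 replicate 1 at 24 h (up to 0.108). The change against siNeg from 6 to 24 h was -0.43 (adjusted p = 0.0415), the only call among the 7 genes for that interval, beside 3.69% of all genes. It was lost under 5 of 11 alternative settings (adjusted p up to 0.0863) and without 11 of the 18 arrays (up to 0.149).

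ZW10 had the narrowest range of the 7 genes, from 6.63 to 7.27 over the 18 arrays. Against siNeg the difference was -0.01 at 6 h (95% interval from -0.28 to 0.25), 0.08 at 24 h (from -0.18 to 0.34) and -0.05 at 48 h (from -0.31 to 0.21). Its highest arrays were those of Control at 24 h, at 7.24 and 7.27, against 6.83 and 6.69 in siNeg and 6.72 and 6.96 in siMPS1. Against Control at 24 h siMPS1 was at -0.42 (adjusted p = 0.0369) and siNeg at -0.49 (adjusted p = 0.0632). The siMPS1 call was lost under 6 of 11 alternative settings (adjusted p up to 0.0709) and without either Control array or siMPS1 replicate 1 at 24 h (up to 0.243).

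**Figure D3:**
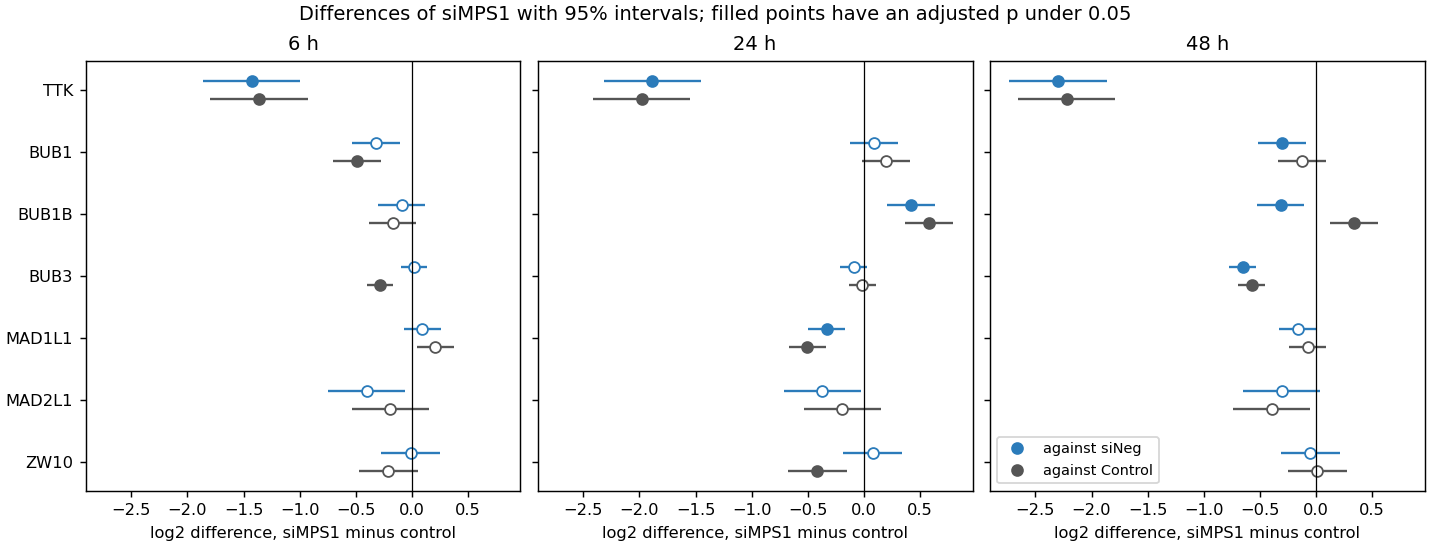
Log2 difference of siMPS1 from siNeg and from Control (horizontal axis) for each gene (vertical axis) at 6, 24 and 48 h, on the log2(signal + 3) scale; bars are 95% intervals of the limma fit and filled points have an adjusted p under 0.05. TTK lies far to the left at each time, BUB1B lies to the right at 24 h and on opposite sides of 0 against the 2 controls at 48 h, and BUB3 lies to the left at 48 h.

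With time, 6 of the 7 genes were called between 6 and 24 h in each treatment, 5 higher and MAD1L1 lower, beside 43.1% of all genes in Control, 44.2% in siNeg and 47.4% in siMPS1. With median centring the differences shifted by -0.161 in Control and by 0.105 in siMPS1, and the share of called genes that were higher went from 63.1% to 40.5% in Control and from 55.6% to 66.9% in siMPS1. BUB1 rose most, by 1.76 in Control, 2.04 in siNeg and 2.45 in siMPS1 (SE 0.10). BUB1B rose by 1.40 in Control, 1.64 in siNeg and 2.15 in siMPS1. MAD2L1 rose by 0.81, 0.78 and 0.81. BUB3 rose by 0.20, 0.58 and 0.47 on its main probe set, and the Control value was 0.03 with median centring (adjusted p = 0.693) and 0.05 as the mean of its probe sets, a setting under which the siNeg value was 0.14 (adjusted p = 0.0736). The BUB3 call in Control was also lost without Control replicate 1 at 6 h or replicate 2 at 24 h (adjusted p up to 0.0934). MAD1L1 fell, with differences of -0.39 in Control, -0.68 in siNeg and -1.10 in siMPS1, while ZW10 was not called in any treatment, at 0.30 in Control (adjusted p = 0.0593), 0.01 in siNeg and 0.10 in siMPS1, with the Control value at an unadjusted p of 0.0266. That Control value was called with the compared groups alone (adjusted p = 0.022) and without either Control array at 48 h (down to 0.0438).

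For BUB1 and BUB1B the rise was larger in siMPS1 than in siNeg by 0.41 (SE 0.14, adjusted p = 0.117) and 0.51 (SE 0.14, adjusted p = 0.0526), neither of them called. The BUB1B value was called under 3 of 11 alternative settings (a pseudocount of 11, the lowest 60% left out, and the mean of probe sets, with adjusted p-values down to 0.0415) and without either Control array or siNeg replicate 2 at 6 h (down to 0.029). From 24 to 48 h fewer of the 7 were called. In siMPS1 3 fell, beside 24.4% of all genes: BUB1 by 0.57 (log2 difference -0.57, adjusted p = 0.000606), BUB1B by 0.40 (-0.40, adjusted p = 0.0072) and BUB3 by 0.44 (-0.44, adjusted p = 3.09e-05). Without siMPS1 replicate 2 at 48 h the BUB1B call was lost (adjusted p = 0.0542). In siNeg 1 was called, beside 29.2%: BUB1B, which rose by 0.33 (adjusted p = 0.0177), a call lost without siNeg replicate 1 at 24 or at 48 h (adjusted p up to 0.149). In Control 1 was called, beside 19.5%: MAD1L1, at -0.32 (adjusted p = 0.00877), which was -0.18 with median centring (adjusted p = 0.124), a setting that shifted all differences of that contrast by 0.14 and took the share of called genes that were higher from 41.1% to 77.6%. The MAD1L1 call was also lost without Control replicate 2 at 24 h or replicate 1 at 48 h (adjusted p up to 0.0921).

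The other genes of the checkpoint and kinetochore were taken from 6 lists by role, of which 36 of 43 genes were tested. Against siNeg 2 of the 36 were called at 6 h, beside 7.69% of all genes, a share no larger than that background: cyclin A2 (CCNA2) at -0.61 and cyclin B1 (CCNB1) at -0.37. Against Control CCNA2 was at -0.33 (adjusted p = 0.069) and CCNB1 at -0.39 (adjusted p = 0.00166). At 24 h 5 were called, near the 10.9% of all genes: CCNB2, a second cyclin B, at -1.02 and CCNB1 at -0.23 were lower, and NUP98, a nuclear pore protein, at 0.63, CDK1, the kinase that drives mitosis, at 0.49 and ZWINT, which links ZW10 to the kinetochore, at 0.36 were higher. Against Control at 24 h CCNB2 at -1.05, NUP98 at 0.79 and ZWINT at 0.39 were called, while CDK1 at 0.19 (adjusted p = 0.162) and CCNB1 at -0.15 (adjusted p = 0.183) were not. At 48 h 25 of the 36 were called against siNeg, 21 lower and 4 higher, beside 29.2% of all genes called and 13.4% called lower, with a median difference of -0.34 against 0.026 over all genes. Against Control 15 were called at 48 h, 12 lower and 3 higher, beside 27.5% of all genes, with a median of -0.13 against 0.052. Between siNeg and Control at 48 h 12 were called, 10 of them higher in siNeg, beside 12.9% of all genes, with a median of 0.16 against 0.014. The siMPS1 arrays of 48 h are those with the raised 3′ to 5′ ratios given above.

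Of the outer kinetochore, 5 of 9 genes were lower at 48 h against siNeg, beside 13.4% of all genes, among them SPC25 of the NDC80 complex at -0.99 (SE 0.12, adjusted p = 7.49e-06), CENPF at -0.45, the motor CENPE at -0.29 and PMF1 of the MIS12 complex at -0.53. Against Control 2 of the 9 were called, beside 27.5% of all genes, SPC25 at -0.78 and CENPF at -0.61, and the median of the 9 was 0.051, with 5 values above 0. CENPE was at -0.12 (adjusted p = 0.319) and PMF1 at 0.15 (adjusted p = 0.574) against Control, and PMF1 was 0.68 higher in siNeg than in Control (adjusted p = 0.0144). Of the corona and dynein adaptors, which work with ZW10, 3 of 5 were called against siNeg, beside 29.2%, and 4 of 5 against Control, beside 27.5%. SPDL1 was at -0.99 (SE 0.08, adjusted p = 5.87e-08) and KNTC1, a subunit of the RZZ complex beside ZW10, at -0.62, while NDEL1 was higher at 0.69. Against Control these were at -0.62, -0.65 and 0.33, all called. ZWILCH, the other RZZ subunit, was at -0.21 (adjusted p = 0.171) against siNeg and -0.47 (adjusted p = 0.00437) against Control. ZW10 was thus not called at 48 h in either comparison, while KNTC1 was called lower in both.

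Of the checkpoint's target and the factors that silence it, 4 of 6 were lower against siNeg at 48 h, beside 13.4% of all genes, and 1 of 6 was called against Control, beside 27.5%. UBE2C, the ubiquitin-conjugating enzyme of the anaphase-promoting complex, was at -0.84 (SE 0.08, adjusted p = 3.05e-07). TRIP13, which takes MAD2 apart from its partners, was at -0.52, CDC20 at -0.44 and MAD2L1BP, the adaptor of TRIP13, at -0.35. Against Control UBE2C was at -0.53 (adjusted p = 7.25e-05), while TRIP13 was at -0.09, CDC20 at -0.02 and MAD2L1BP at -0.22, none of these 3 called. TRIP13 and CDC20 were each 0.43 higher in siNeg than in Control at 48 h (adjusted p = 0.000433 and 0.00228).

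Of the centromere kinases and their partners, 5 of 6 were lower against siNeg at 48 h, beside 13.4% of all genes, and 3 of 6 were called against Control, all lower, beside 27.5%. PLK1, a kinase that shares substrates with MPS1, was at -1.79 (SE 0.18, adjusted p = 7.04e-07), CDK1 at -0.56, the chromosomal passenger genes BIRC5 and CDCA8 at -0.47 and -0.46. PLK1 was 1.14 higher in siNeg than in Control, and siMPS1 was at -0.65 against Control (adjusted p = 0.0106). CDK1 at -0.53 and BIRC5 at -0.30 were also called against Control, and CDCA8 at -0.13 (adjusted p = 0.411) was not. Of the list of mitotic cyclins, separase and securin, 4 of 5 genes were lower against siNeg at 48 h, beside 13.4% of all genes. They were CCNB2 at -1.41 (SE 0.08, adjusted p = 1.1e-09), CCNB1 at -0.77, separase (ESPL1) at -0.73 and securin (PTTG1) at -0.67. Against Control 3 of the 5 were called, beside 27.5% of all genes. CCNB2 was at -1.21, CCNB1 at -0.60 and PTTG1 at -0.33, all called, and ESPL1 at -0.08 was not. Of the 5 nuclear pore genes 4 were called against siNeg at 48 h, 3 higher and 1 lower, beside 29.2% of all genes, and 2 were called against Control, both higher, beside 27.5%. Against siNeg NUP98 at 1.24, TPR, which holds MAD1 at the pore, at 0.60 and RAE1, a relative of BUB3, at 0.24 were higher and NUP107 at -0.33 was lower. NUP98 was also at 1.24 and RAE1 at 0.31 against Control, both called, whereas NUP107 was at -0.22 (adjusted p = 0.0791). TPR was at -0.02 against Control and was 0.61 lower in siNeg than in Control (-0.61, adjusted p = 0.000229).

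**Figure D4:**
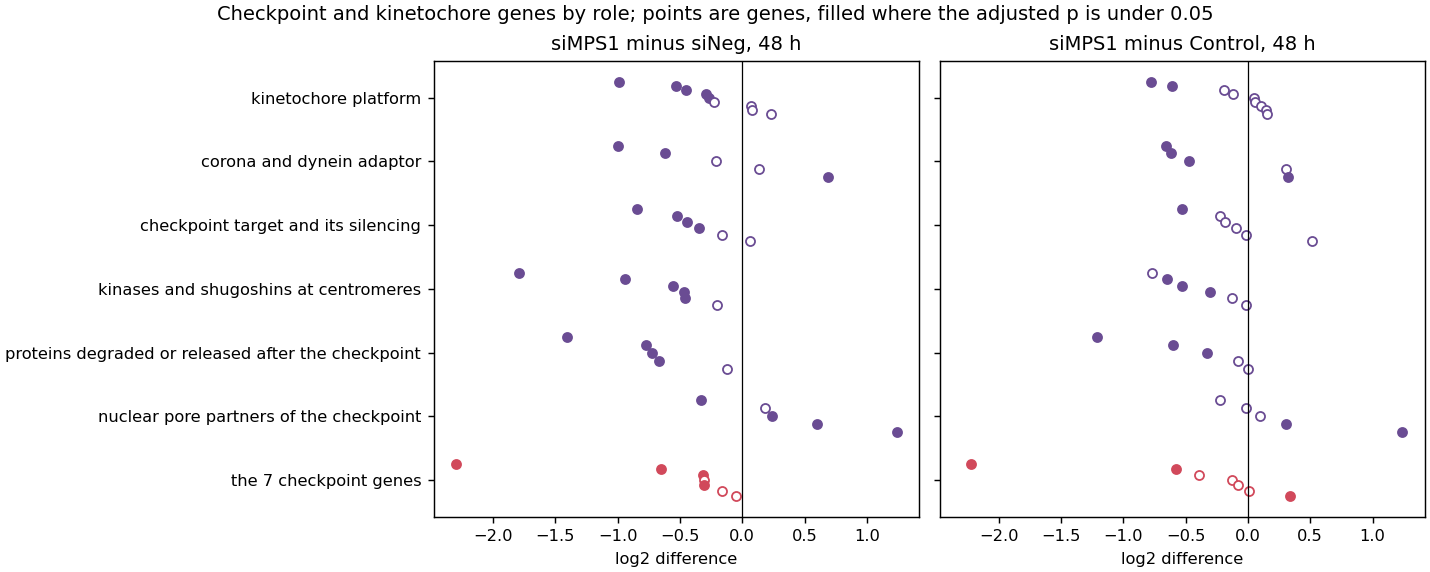
Log2 difference at 48 h of siMPS1 from siNeg (left) and from Control (right) on the log2(signal + 3) scale (horizontal axis) for each tested gene of the 6 role lists and for the 7 checkpoint genes (rows); filled points have an adjusted p under 0.05. Against siNeg the points of the lists lie mostly left of 0 except for the nuclear pore genes, and against Control fewer of them are filled.

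Over the 18 arrays the genes with the most similar pattern to TTK, by Pearson r, were DCPH1 (0.937), SOAT1 (0.926), JPT1 (0.923), POLR3B (0.923) and DAP3 (0.923). For BUB1 they were ANP32E (0.996), RACGAP1 (0.991) and DLGAP5 (0.991), the latter pair encoding proteins of the mitotic spindle and midzone. For BUB1B they were CRYZ (0.977), HMGN2 (0.973) and ELAVL1 (0.973), and for MAD1L1 CSNK1D (0.976), PLOD2 (0.971) and INTS15 (0.967). CPNE3 (0.951), SYPL1 (0.947) and PSMD12 (0.946) led for BUB3, and TPD52 (0.959), PHLDA1 (0.947) and CACYBP (0.943) for MAD2L1. ZW10 had no close match, with NUCKS1 (0.685), BTN2A1 (0.678) and PEX16 (0.648) as its nearest. Among the 7 genes BUB1 and BUB1B were the most alike (r = 0.96), MAD1L1 ran opposite to BUB1B (r = -0.93) and to BUB1 (r = -0.91), and TTK was at 0.79 with BUB3 and 0.54 with BUB1. All these values use main probe sets. For BUB3 that is 201457_x_at, and its other probe sets were not correlated. The arrays share their times and treatments, which set these values, so they are given as a description.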

How the data were processed

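The deposited table holds log2 signals of 18 Affymetrix human arrays. The submitters' processing notes name MAS5, with no version. That the deposited values are log2 was inferred: raised as powers of 2, they gave a mean of 100.122 to 100.134 in each array after trimming 2% at each end. The settings of MAS5 and any later step are not stated in the labels. Of 22277 probe sets 62 were controls, and 19064 of the others named exactly 1 gene, 1043 several and 2108 none. Probe sets among the dimmest 40% by mean were dropped, and each gene kept its brightest remaining probe set, which left 7825 genes. A pseudocount of 3 was added to the linear signal before log2. Group means were fitted with limma 3.58.1 in R 4.3.3 over all 18 arrays, with an intensity trend in the variance and 9 residual degrees of freedom. Tests were two-sided, and p-values were adjusted by Benjamini-Hochberg within each contrast. The fit was also run on simulated arrays with known changes and independent noise, which checks the code and none of the results. A second fit took every single-gene probe set without the filter.

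The 7 genes were always named. Of each role list up to 4 called genes with the smallest p against siNeg at each time were named, with their difference from Control at that time, and for pattern likeness the 3 genes (5 for TTK) with the highest r. ZWILCH was named after its values were seen. The genes and lists were chosen with earlier results of these data known. Alternatives were pseudocounts of 1 and 11, median centring, quantile normalization, the filter off or at 60%, the mean of a gene's probe sets, no variance trend, a replicate block, the compared groups alone, an adjusted p under 0.01, and leaving out each array.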

Additional observations from a re-analysis of the deposited data

Results flagged for a closer look

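The differences below are the change between times of the difference between siMPS1 and siNeg, each tested as an interaction in limma on the log2(signal + 3) scale. BUB3 on its main probe set changed by -0.5623 from 24 to 48 h (adjusted p = 0.000119) and by -0.6706 from 6 to 48 h (adjusted p = 1.88e-05). With the mean of its probe sets the first was -0.30 (adjusted p = 0.0289) and the second -0.11 (adjusted p = 0.412). BUB1B changed by -0.7343 from 24 to 48 h (adjusted p = 0.00168), from above siNeg to below it in both arrays of each group. TTK changed by -0.8697 from 6 to 48 h (adjusted p = 0.0421), with every siMPS1 array below every siNeg array at both times. MAD1L1 changed by -0.4259 from 6 to 24 h (adjusted p = 0.0415), from arrays at or above those of siNeg to arrays below them. The TTK and MAD1L1 values lie near the threshold, and their calls were lost under 8 and 5 of 11 alternative settings and without any of 8 and of 11 of the 18 arrays.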

How the results depend on the processing

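These checks cover the 7 genes and the counts over all genes. The genes of the role lists were not followed one by one under other settings or with an array left out. The direction of no called value of the 7 genes was reversed. Of 1386 values under the 11 alternative settings, 1331 stayed on their side of the threshold, 40 lost their call and 15 gained one, and of 2268 values with an array left out 2202 did so, 46 lost their call and 20 gained one. TTK was called against siNeg and against Control at each time under all of them. The number of the 7 genes called for siMPS1 against Control at 6 h was 3 (over all genes 1298). It was 5 with median centring (all genes 2246) and 1 with the mean of probe sets (all genes 1338). For siNeg against Control it was 1 at 6 h (all genes 302) and 0 with the mean of probe sets (all genes 345). At 24 h it was 0 (all genes 73). It was 1 there with the lowest 60% left out (138 of 5643 genes) or the compared groups alone (all genes 130). For siMPS1 against siNeg it was 1 at 6 h (all genes 602) and 2 with the compared groups alone (all genes 518). At 24 h it was 3 (all genes 856) and 1 at an adjusted p under 0.01 (all genes 367). At 48 h it was 4 (all genes 2282) and 2 at that threshold (all genes 1441). With an array left out the counts ran from 1 to 2 at 6 h, where 2 came without siMPS1 replicate 1 at 6 h or either siMPS1 array at 24 h, and from 2 to 4 at 48 h, where 2 came without siMPS1 replicate 2. The lone array then left in a group was assumed to vary like the other groups. Some values that were not called changed sign. The causes were not tested.

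Replicate numbers showed little sign of pairing. The deviations of same-numbered arrays from their group means correlated from -0.14 to 0.11 over 36 pairs of groups, with 1 pair over 0.1. Such low correlations cannot show that same-numbered arrays were handled apart. For siMPS1 a replicate block gave 1, 3 and 4 of the 7 genes called against siNeg at 6, 24 and 48 h. Against Control it gave 4, 4 and 3, where MAD1L1 was added at 6 h (adjusted p = 0.0452). Over all genes the block called 574, 811 and 2265 against siNeg and 1323, 961 and 2145 against Control. The labels state no scan batch, and 2 arrays a group limit every value.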
